A study of Mus musculus with 8 samples.

Results

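The Fos and Jun family genes studied here are Fos, Fosb, Fosl1 and Fosl2, the Jun family genes Jun, Junb and Jund, and the related partners Jdp2 and Atf3. These 9 genes, of 18193 with a probe set that carried 1 gene symbol, were chosen by name, and every probe set annotated to them was followed, 14 in all. The arrays came from inguinal mammary gland of virgin mice, 12 to 13 weeks old, that had been gonadectomized, so that all groups lacked hormones from the gonads. Of the 8 arrays, 2 were from mice given a vehicle solution, both titled 24 h, and 6 were from mice given 17β-estradiol (E2) under the skin. These 6 arrays followed the response at 1, 3 and 6 h and then at 12, 18 and 24 h, with 1 array at each time. The dose is not given here because the labels write it with 2 mass units. The times are those of the sample titles, whereas the description of each sample reads 24 h. The labels do not say whether an array held RNA of 1 mouse or of several.

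The products of these genes are basic leucine zipper proteins that bind DNA as pairs known together as activator protein 1 (AP-1). Fos proteins must pair with a Jun protein to bind, whereas Jun proteins can also pair with each other, and Jdp2 and Atf3 join the same pairs and often act as repressors. Several of the genes are immediate early genes, transcribed within minutes of a growth factor, hormone or stress signal and then shut off again, and the estrogen receptor can act on genes through AP-1 without binding DNA itself. The questions put to the data were when each transcript first lay above the vehicle arrays, when it was highest, and whether it later lay below them.

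The DNA just before the start of 6 of these genes is shown to describe the motifs there, and a tie between motif and course was not tested. RefSeq starts in mouse build GRCm38.p6 were held for 8 of the 9 genes, with 10 start sites, and Fosl1 was not among them. Each line below gives the 120 bases before the start, 5′ to 3′ on the gene's strand. The regions are chr12:85473770-85473889 (plus strand) for Fos, chr7:19310046-19310165 (minus) for Fosb, chr5:32136352-32136471 (plus) for Fosl2, chr8:84978749-84978868 (minus) for Junb, chr12:85599296-85599415 (plus, the second of its 3 starts) for Jdp2 and chr4:95052223-95052342 (minus) for Jun. The annotated Fosb gene reaches to chr7:19310118, and the annotated Jdp2 gene begins at chr12:85598656. The Fosb stretch therefore lies partly, and the Jdp2 stretch wholly, within the annotated gene. Capitals mark TGACG, the core of the cyclic AMP response element, TATAAA, and in Jun TGACNTCA, an AP-1-like element. The Fosl2 stretch has none of these. Neither do the windows of Jund and of the other Jdp2 starts, which are not printed.
Fos: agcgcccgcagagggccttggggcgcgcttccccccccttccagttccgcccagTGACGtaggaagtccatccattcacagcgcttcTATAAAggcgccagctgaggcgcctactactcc
Fosb: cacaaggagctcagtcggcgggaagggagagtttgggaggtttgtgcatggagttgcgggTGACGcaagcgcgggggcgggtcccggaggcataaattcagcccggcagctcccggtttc
Fosl2: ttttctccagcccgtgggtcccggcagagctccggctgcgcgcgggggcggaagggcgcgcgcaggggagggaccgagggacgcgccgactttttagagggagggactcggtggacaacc
Junb: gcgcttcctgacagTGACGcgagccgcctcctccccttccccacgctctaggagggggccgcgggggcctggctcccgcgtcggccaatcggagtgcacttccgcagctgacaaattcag
Jdp2: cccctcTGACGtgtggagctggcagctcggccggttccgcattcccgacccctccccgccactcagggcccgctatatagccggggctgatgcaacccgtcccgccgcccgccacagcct
Jun: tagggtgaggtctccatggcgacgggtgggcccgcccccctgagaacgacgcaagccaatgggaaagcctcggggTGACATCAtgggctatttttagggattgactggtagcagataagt

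On either strand of the whole window, from 250 bases before to 50 after the start, TGACG was found in 5 of the 10 member windows, those of Fos, Fosb, Junb, Atf3 and the second Jdp2 start, and in 20.8% of 32851 windows of that length. In Fos it began 66 and 129 bases before the start, in Fosb 60, in Junb 106 and in Jdp2 114 bases before it. TATAAA, in 13.6% of all windows, began 33 bases before the Fos start and at the first base of the annotated Junb transcript. The Jun window held TGACATCA, a form of TGACNTCA (8.83% of all windows), 45 bases before the start. The full palindrome TGACGTCA (1.79% of all windows), which contains TGACG and is itself a form of TGACNTCA, the consensus AP-1 site TGANTCA (7.81%), the palindromic estrogen response element (0.07%) and the CArG box of serum response factor (1.63%) were in no member window. These are descriptions of letters in these windows.

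Levels are given as log2 of the deposited intensity, so that 1 unit is a 2-fold difference, and values of different probe sets are not compared as levels. Where a gene had several probe sets, that of highest mean stood for it, and genes at or above the 40th percentile of these means, 10916 in all, were tested. Of the 9 AP-1 genes 7 passed this filter, and Fosb and Fosl1 did not, with means of 7.44 and 7.66 against a limit of 7.72. Since 1 array stood for each time, the E2 arrays were also grouped into windows of 3 arrays, early (1 to 6 h) and late (12 to 24 h), which were tested against each other and against the 2 vehicle arrays. The p-values, from limma with Benjamini-Hochberg adjustment over the 10916 genes, rest on the spread among single arrays, and that spread may be technical. The 3 arrays of a window are of different times and are not replicates. In the window fits a change within a window therefore also counts as spread. No vehicle array was titled 1 to 18 h, so E2, the injection itself and the time of day cannot be told apart at those times.

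For 8 of the 9 genes the representative probe set had its highest array at 1 or 3 h, and for Fosl1 at 24 h. How many of all genes had their highest array at these times was not counted. At 1, 3 and 6 h the arrays of all 7 tested AP-1 genes lay above both vehicle arrays, as did 39.7%, 35% and 38.6% of all genes at the same times. All 3 early arrays also lay above all 3 late arrays for each of the 7 genes. Of the 10916 genes, 13.7% had all early arrays above both vehicle arrays, and 15% had all early arrays above all late arrays. Against the late window, 4 of the 7 were higher in the early window past the test (Fos, Jun, Fosl2 and Junb), where 0.55% of all genes passed in either direction. In whole tissue, a change in the number of cells of a type and a change in RNA per cell cannot be told apart.

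**Figure D1:**
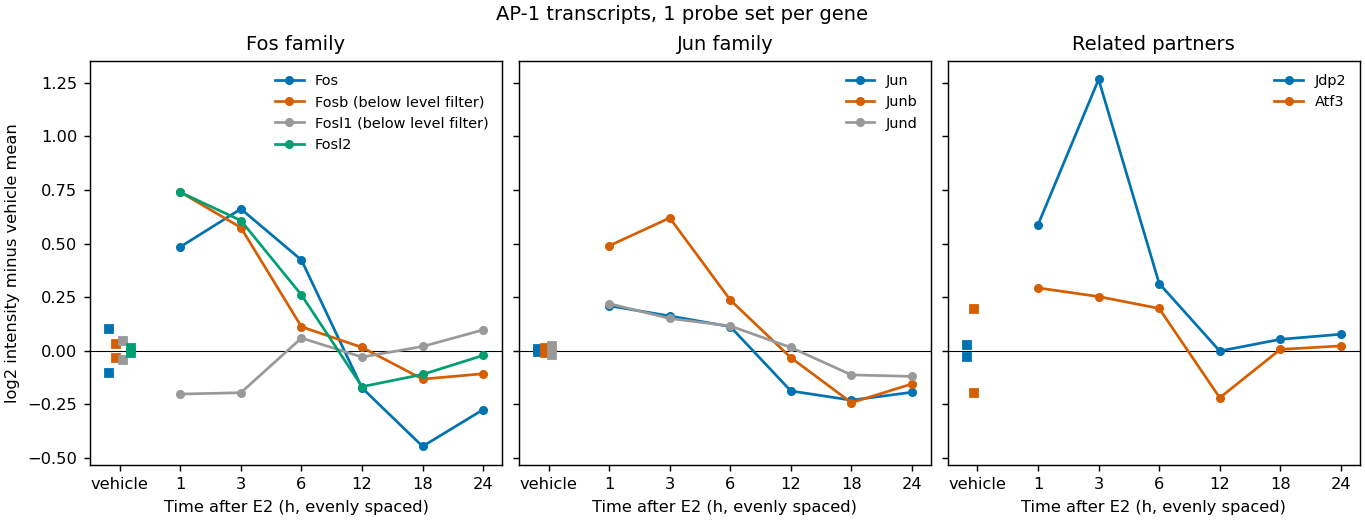
Each line shows 1 gene's representative probe set on the 6 E2 arrays, as log2 intensity minus the vehicle mean, against the hours after E2 (evenly spaced); squares are the 2 vehicle arrays. Fos, Fosb, Fosl2, Junb and Jdp2 stand at 0.48 to 0.74 at 1 h, Jdp2 reaches 1.26 at 3 h, and Fos lies lowest at 18 h.

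Fos (Entrez 14281, probe set 1423100_at), the founding member of the family, read 10.95 and 11.16 on the vehicle arrays and 11.54, 11.72, 11.48, 10.88, 10.61 and 10.78 at the 6 times in order. Every early array was above, and every late array below, both vehicle arrays. Against the vehicle mean Fos was 1.40-fold at 1 h, 1.58-fold at 3 h, 1.34-fold at 6 h and 0.73-fold at 18 h. The early window exceeded the late window by 0.82 ± 0.0871 (SE, log2; n = 3 against 3; limma adjusted p = 0.0199). It lay 0.52 ± 0.0974 above vehicle, which did not pass (adjusted p = 0.345).

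Fosb (Entrez 14282, probe set 1422134_at), a close relative of Fos that is also an immediate early gene, read 7.33 and 7.26 on the vehicle arrays and 8.03, 7.87, 7.40, 7.31, 7.16 and 7.19 at the 6 times. It was farthest above vehicle at 1 h, 1.67-fold, was near the higher vehicle array by 6 h, and lay below both vehicle arrays at 18 and 24 h. Its level was under the filter. Fitted without a filter over 18193 genes, Fosb was 0.55 ± 0.129 higher in the early than in the late window (adjusted p = 0.116). Fosb fell by 0.21 ± 0.0227 per doubling of the hours after E2 over the 6 E2 arrays (adjusted p = 0.0272). In that slope fit 10 of the 18193 genes passed.

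Fosl2 (Entrez 14284), which encodes Fra-2, had 2 probe sets. The probe set with the higher mean, 1437247_at, read 9.44 and 9.42 on the vehicle arrays and 10.17, 10.04, 9.69, 9.26, 9.32 and 9.41 at the 6 times. It was thus highest at 1 h, 1.67-fold above the vehicle mean, and below both vehicle arrays from 12 h on, at 24 h by a small margin (-0.01 against vehicle 2). The early window exceeded the late one by 0.63 ± 0.104 (adjusted p = 0.0406). The other probe set, 1422931_at, differed: its vehicle arrays were 0.23 apart, it lay 0.25, 0.22 and 0.27 above the vehicle mean at 1, 3 and 6 h, it lay between the vehicle arrays at 12 h (-0.05), and at 18 and 24 h it was 0.16 and 0.13 above the mean. When every probe set was tested as its own row, 1422931_at was 0.16 ± 0.0735 higher in the early than in the late window (adjusted p = 0.295) and 1437247_at was 0.63 higher (adjusted p = 0.0434).

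Fosl1 (Entrez 14283), which encodes Fra-1 and is itself known to be switched on by other AP-1 proteins, did not share this course. Probe set 1417487_at read 7.74 and 7.65 on the vehicle arrays and 7.49, 7.50, 7.75, 7.66, 7.71 and 7.79 at the 6 times. It was the only representative probe set below both vehicle arrays at 1 and 3 h. Probe set 1417488_at lay between the vehicle arrays at all 6 times. Without a filter, 1417487_at was -0.14 ± 0.0773 in the early against the late window (adjusted p = 0.401).

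**Figure D2:**
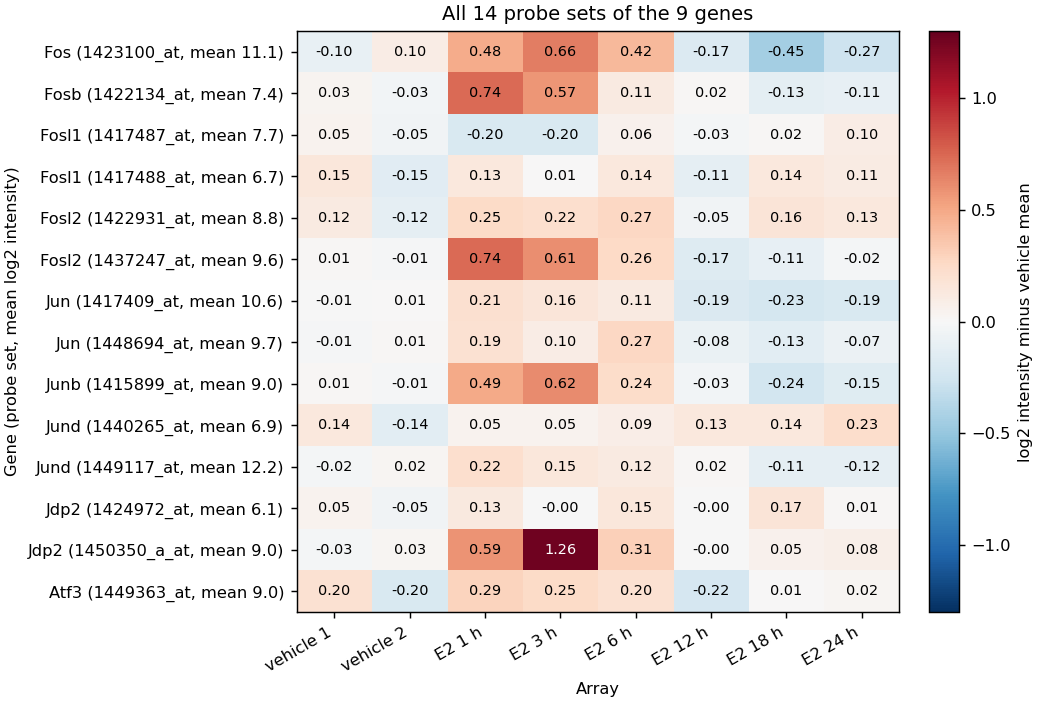
Each cell gives log2 intensity minus the vehicle mean for 1 of the 14 probe sets (rows, with mean log2 intensity) on 1 of the 8 arrays (columns). Red cells at 1 and 3 h mark Fos, Fosb, Fosl2 (1437247_at), Junb and Jdp2 (1450350_a_at), whereas the second probe sets of Fosl2 and Jdp2 stay within 0.27 and 0.17.

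Among the Jun genes, Junb (Entrez 16477, probe set 1415899_at), a Jun protein that is a weaker activator than Jun, was highest at 3 h. It read 8.92 and 8.90 on the vehicle arrays and 9.40, 9.53, 9.15, 8.88, 8.67 and 8.75 at the 6 times. Junb was 1.54-fold above the vehicle mean at 3 h and 0.85-fold at 18 h, and all late arrays lay below both vehicle arrays, at 12 h by a small margin (-0.03 against the vehicle mean). The early window exceeded the late one by 0.59 ± 0.0916 (adjusted p = 0.0406). Over the 8 arrays the values of Junb and Fos correlated with r = 0.959, a description in which both genes share every array.

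Jun (Entrez 16476), the main partner of Fos, lay less far above vehicle. Probe set 1417409_at read 10.64 and 10.66 on the vehicle arrays and 10.86, 10.81, 10.76, 10.46, 10.42 and 10.46 at the 6 times. Its largest distance from the vehicle mean was below it, at -0.23 at 18 h, and its highest array, at 1 h, was 1.16-fold above. The vehicle arrays were 0.02 apart, and the early window exceeded the late one by 0.36 ± 0.0429 (adjusted p = 0.0265). The second probe set, 1448694_at, lay on the same side of both vehicle arrays at each time, with 0.27 at 6 h and -0.13 at 18 h as its extremes. Tested as its own row it was 0.28 ± 0.0528 higher in the early window (adjusted p = 0.0596).

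Jund (Entrez 16478), the Jun gene usually expressed steadily, had 2 probe sets that differed in course. Probe set 1449117_at read 12.12 and 12.17 on the vehicle arrays and 12.37, 12.30, 12.26, 12.16, 12.03 and 12.03 at the 6 times. The early arrays were 0.12 to 0.22 above the vehicle mean, the 12 h array lay between the vehicle arrays, and those at 18 and 24 h were at -0.11 and -0.12. Early exceeded late by 0.23 ± 0.0517, which did not pass (adjusted p = 0.0828). The second probe set, 1440265_at, whose vehicle arrays were 0.28 apart, stayed between them up to 18 h and was highest at 24 h, at 0.23.

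Jdp2 (Entrez 81703), which pairs with Jun and represses AP-1 sites, lay farthest above vehicle. Probe set 1450350_a_at read 8.65 and 8.70 on the vehicle arrays and 9.26, 9.94, 8.99, 8.67, 8.73 and 8.75 at the 6 times. It lay 0.59 above the vehicle mean at 1 h, 1.26 above at 3 h, which is 2.40-fold, and 0.31 above at 6 h, and at 18 and 24 h it lay slightly above both vehicle arrays, so that it showed no undershoot. Its early arrays were far apart, and the difference of the early from the late window, 0.68 ± 0.187, did not pass (adjusted p = 0.136). The other probe set, 1424972_at, with a mean of 6.07, stayed within 0.17 of the vehicle mean. The large 3 h value therefore rests on 1 probe set on 1 array.

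Atf3 (Entrez 11910, probe set 1449363_at), a stress-induced member of the ATF branch, read 9.11 and 8.71 on the vehicle arrays, 0.39 apart, and 9.20, 9.16, 9.11, 8.69, 8.92 and 8.93 at the 6 times. The early arrays lay above the vehicle mean by 0.20 to 0.29, which placed them only just above the higher vehicle array. Early exceeded late by 0.31 ± 0.0991 (adjusted p = 0.162). Against vehicle 1 alone, without vehicle 2, the early window lay 0.05 above, and against vehicle 2 alone 0.44 above.

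In onset, 5 of the 9 representative probe sets (Fos, Fosb, Fosl2, Junb and Jdp2) were at least 0.3 above both vehicle arrays at 1 h already, and the other 4 were so at no time. Of the 7 tested genes this was 4, where 0.834% of all tested genes were that far above at 1 h. The highest array was that at 1 h for Fosb, Fosl2, Jun, Jund and Atf3, that at 3 h for Fos, Junb and Jdp2, and that at 24 h for Fosl1. Jdp2 alone had these times clearly apart, with 0.68 from 1 to 3 h. For Fos the step was 0.18, for Junb 0.13, for Fosl2 -0.13 and for Fosb -0.17, where the SD over the 10916 genes was 0.144, so an order of these 4 cannot be read.

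At 1.5-fold above both vehicle arrays stood Fosl2 at 1 h, and Fosl2, Junb and Jdp2 at 3 h, where 0.293% of genes at 1 h and 0.568% at 3 h were that high. Fosb, below the level filter, was also past this fold at 1 h. In a limma fit with 7 group means, which takes its 1 residual degree of freedom from the vehicle arrays and assumes that each single E2 array varies as they do, 3 of the 7 tested genes passed at 3 h, where 0.595% of all genes did. These were Jdp2 at 1.26 ± 0.0813 (adjusted p = 0.00716), Junb at 0.62 ± 0.079 and Fosl2 at 0.61 ± 0.0774 (both adjusted p = 0.0444), and Fos at 0.66 ± 0.105 did not pass (adjusted p = 0.0908). Over all times the calls of AP-1 genes numbered 3, and 1 to 9 under other settings, so these p-values describe single arrays rather than support a time. At 1 h the nearest was Fosl2 (adjusted p = 0.1), where 0.0641% of all genes passed. At 6 h the lowest adjusted p among the 7 was 0.314, with 0.366% of all genes passing, and at 12, 18 and 24 h it was 1, 0.72 and 0.718, with 0.0366%, 0% and 0% of all genes passing.

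The early window against vehicle gave 0 calls among the 7 genes and 0% over all genes. The differences were Jdp2 0.72 ± 0.21, Fosl2 0.54 ± 0.116, Fos 0.52 ± 0.0974, Junb 0.45 ± 0.102, Atf3 0.25 ± 0.111, Jund 0.16 ± 0.0578 and Jun 0.16 ± 0.048 (n = 3 against 2). All 7 were higher, with a median of 0.45 against 0.01 over all genes tested, and 6 of the 7 had an unadjusted p below 0.05, where 3.64% of all genes were higher at that level. Adjusted p lay between 0.345 for Fos and 0.909 for Atf3. Without the 6 h array Fosl2 passed, at 0.67 (adjusted p = 0.016), where 8 of all genes did.

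**Figure D3:**
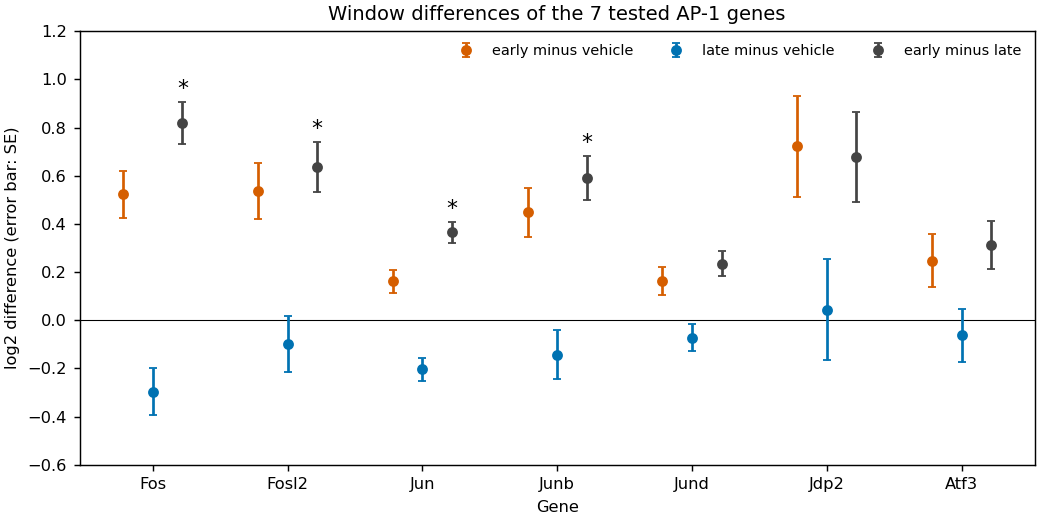
Points are log2 differences between windows for the 7 tested genes, with SE bars; an asterisk marks a limma adjusted p below 0.05. Asterisks stand over early minus late for Fos (0.82), Fosl2 (0.63), Jun (0.36) and Junb (0.59) and over no comparison with vehicle.

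The undershoot after the early response was small. At 18 h 6 of the 9 representative probe sets lay below both vehicle arrays (Fos, Fosb, Fosl2, Jun, Junb and Jund), and at 24 h the same 6 did. Of the 7 tested genes these were 5 at each time and 5 at both, while 44.2% of all genes lay below both vehicle arrays at 18 h, 46.4% at 24 h and 34.3% at both. All 3 late arrays were below both vehicle arrays for 4 of the 7 tested genes (Fos, Fosl2, Jun and Junb), against 13.3% of all genes, and the same 4 had every early array above vehicle, a combination held by 1.21% of all genes. Some margins were small: against vehicle 2, the lower array, Fosl2 was at -0.01 at 24 h and Junb at -0.02 at 12 h. The other Fosl2 probe set, 1422931_at, lay above both vehicle arrays at 18 and 24 h. The late window lay at -0.30 ± 0.0974 for Fos and -0.20 ± 0.048 for Jun (both adjusted p = 0.634), and at -0.14 for Junb, -0.10 for Fosl2, -0.07 for Jund, -0.06 for Atf3 and 0.04 for Jdp2. None passed, and 0% of all genes did; 2 of the 7 (Fos and Jun) had an unadjusted p below 0.05, where 4.8% of all genes were lower at that level. The early and the late values share the same 2 vehicle arrays. For Atf3 the sign turned without vehicle 1 (0.13) or without the 12 h array (0.01).

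Over the 6 E2 arrays alone, all 7 tested genes had negative slopes on log2 hours, and none passed (adjusted p = 0.0749 for Fosl2 to 0.196 for Jdp2), where 0.0824% of all genes did. Of all 10916 genes, 6642 had a negative slope. The slopes were -0.23 ± 0.0503 per doubling of time for Fos, -0.21 ± 0.03 for Fosl2, -0.19 ± 0.0722 for Jdp2, -0.18 ± 0.0334 for Junb, -0.11 for Jun, -0.08 for Atf3 and -0.08 for Jund. All 7 had an unadjusted p below 0.05, as did 15% of all genes in that direction. Without the 1 h array 4 passed, namely Fos (-0.37, adjusted p = 0.0105), Junb (-0.28, adjusted p = 0.00865), Jun (-0.14, adjusted p = 0.0439) and Fosl2 (-0.24, adjusted p = 0.0453), and without the 12 h array Fosl2 passed (-0.19, adjusted p = 0.0425). Over all genes 298 passed without the 1 h array and 52 without the 12 h array, against 9 with all 6 arrays.

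The calls of early against late rested on few arrays. With either the 18 h or the 24 h sample dropped, 0 of the 7 passed, and 0 of all genes tested did. Fos then had an adjusted p of 0.153 and 0.0764, respectively. The loss of calls at these times was thus not particular to the AP-1 genes. Over all genes 60 passed with every array kept. Dropping a single early or 12 h array gave 232 genes for 1 h, 8 for 3 h, 69 for 6 h and 13 for 12 h. Without the 3 h array Fos alone passed, and without the 12 h array, vehicle 1 or vehicle 2 only Fos and Jun did. The differences themselves kept their sign in all 19 alternatives, from 0.70 to 0.93 for Fos, 0.31 to 0.40 for Jun, 0.48 to 0.75 for Junb and 0.40 to 0.77 for Fosl2. Fos passed in 16 of the 19, Jun in 15, Junb in 11 and Fosl2 in 9.

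Subunits were compared by taking Fos minus each other member on every array and setting the early against the vehicle arrays in a two-sided exact permutation test over 10 assignments, which cannot give a p below 0.1. Fos exceeded Jun by 0.36 and Jund by 0.36 more in the early than in the vehicle arrays, each with the smallest p possible (exact p = 0.1; adjusted over 8 pairs 0.4). The difference was 0.64 against Fosl1 (exact p = 0.2) and 0.28 against Atf3 (exact p = 0.4). Against Junb (0.07), Fosb (0.05), Fosl2 (-0.01) and Jdp2 (-0.20) the exact p lay between 0.6 and 1. The design cannot show any of these pairs to differ, and does not show that they are alike. Early arrays minus vehicle mean for Fos minus Jun were 0.27, 0.50 and 0.31, with the vehicle arrays at -0.09 and 0.09, so that these groups did not overlap. For Fos minus Jund (0.26, 0.51 and 0.31) and Fos minus Fosl1 (0.69, 0.86 and 0.36) they did not overlap either, and for the other pairs they did. With so few arrays this adds nothing to the exact p.

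Other genes were read from lists of other leucine zipper factors, of proteins known to switch on or be switched on by AP-1, and of other immediate early genes. Of 19 tested (21 listed) other leucine zipper factors, 1 was higher in the early than in the late window and 0 were lower. Of all genes, 0.55% were called in either direction. The 1 called was Nfil3, a repressor, at 0.48 ± 0.077 (adjusted p = 0.0406). Nfil3 lay at 0.60, 0.49 and 0.36 above the vehicle mean at 1, 3 and 6 h. Cebpb, an activator of inflammatory and fat cell genes, was 0.54 and 0.31 above at 1 and 3 h, and Atf4, of the amino acid stress response, was at most 0.29 above, at 6 h, and neither passed in any window comparison. Maf, Creb1 and the Batf genes were in the same list, whose median for early against late was 0.08, where all genes had 0.03 and the 7 AP-1 genes 0.59.

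Of 6 tested genes for serum response factor, its ternary complex factors and its coactivators Mrtfa and Mrtfb, and of 10 tested genes of the MAP kinase cascades, 0 passed in any window comparison. In early against late, 2 of the 6 and 1 of the 10 were higher at an unadjusted p below 0.05, where 13.6% of all genes were. Srf was 0.18 ± 0.0891 above vehicle in the early window, with 0.21, 0.29 and 0.04 at 1, 3 and 6 h and -0.21 and -0.19 at 18 and 24 h. Elk4 lay at 0.09 and Elk3 at 0.03. Map2k1, Mapk8 and Map2k4, the kinases farthest from vehicle, lay at 0.10, 0.10 and 0.07, and the medians of the 2 lists were 0.03 and 0.00472.

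Of 18 tested other immediate early genes, where again 0.55% of all genes were called, 2 were higher in the early than in the late window, Ccn1, a matricellular protein, at 1.22 ± 0.183 (adjusted p = 0.0406) and Ier3, a survival factor, at 0.45 ± 0.077 (adjusted p = 0.0414), and 0 were lower. The zinc finger factor Egr1 lay at 0.24, 0.70 and 0.51 at 1, 3 and 6 h and at -0.47 and -0.41 at 18 and 24 h, and Ier2 at 0.32, 0.50, 0.17, -0.34 and -0.27 at the same times. Neither passed (adjusted p = 0.0999 and 0.0828). The list had a median of 0.26 for early against late. Of 13 tested genes known as AP-1 targets (20 listed), 0 passed, 5 were higher in early against late at an unadjusted p below 0.05 (13.6% of all genes), and the median early difference from vehicle was 0.13. The highest were Mt2, a metallothionein, at 0.29 ± 0.158, Vegfa, an angiogenic factor, at 0.26 ± 0.0986, and Hmox1, heme oxygenase, at 0.25 ± 0.118, with Mt2 and Hmox1 highest at 6 h (0.68 and 0.48) and Vegfa at 3 h (0.42).

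The genes whose course over the 8 arrays was most like that of a member were sought among tested genes with a range of at least 0.5, 731 in each search, and the correlations describe arrays that all genes share. For Fos these were Tfrc, the transferrin receptor (r = 0.984), Socs2, an inhibitor of cytokine signalling (r = 0.98), and Tle3, a corepressor (r = 0.96). Tfrc lay at 0.44, 0.63, 0.32, -0.20, -0.40 and -0.41 over the 6 times. For Junb they were Ccn1 (r = 0.985), Tfrc (r = 0.968) and Thbs1, thrombospondin (r = 0.964). For Fosl2 they were Thbs1 (r = 0.976), the scavenging chemokine receptor Ackr3 (r = 0.971) and Nfil3 (r = 0.963). For Jdp2 they were the mitochondrial carrier Slc25a33 (r = 0.994), the water channel Aqp5 (r = 0.976) and the thioesterase Acot1 (r = 0.962), all highest at 3 h, at 1.15, 1.86 and 2.51.

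Markers of other cells varied between the arrays, and their part in the AP-1 values was tested only as far as given here. The arrays had median intensities of 173.9 to 180.49. The labelled tissue was borne out by Adipoq, Fabp4, Krt8, Krt18 and Epcam, each above the level filter, whereas of the myoepithelial keratins Krt5 was above it, at 8.71, and Krt14 and Krt17, at 7.56 and 6.18, were not. Of 18 tested skeletal muscle markers all were higher than vehicle in both windows, with list means of 0.82, 0.66, 1.27, 0.21, 0.85 and 0.95 at the 6 times. With their mean as a covariate, early minus late remained called for Fos, Jun, Junb and Fosl2. It was also called for Jdp2 (0.78, adjusted p = 0.0353) and Jund (0.27, adjusted p = 0.0134). In that fit 1121 of all genes tested were called early against late, where 60 were without the covariate. The early value of Fos then became 0.81 (adjusted p = 0.0498), that of Atf3 0.000651, and the late value of Fos -0.09. Early against vehicle, 12 genes were called in that fit. The vehicle arrays had muscle means of 0.19 and -0.19, below every E2 array. The values against vehicle thus reach beyond the range of the vehicle arrays, and the fit cannot separate muscle content from E2 in them.

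All 6 tested B lymphocyte markers were lower than vehicle in the late window, with list means of 0.11, 0.14, -0.12, 0.15, -0.48 and -0.44 at the 6 times, and vehicle 1 and 2 at -0.15 and 0.15. T lymphocyte markers (7 genes) lay at -0.29 and -0.21 at 18 and 24 h, the times at which Fos was lowest. With the B lymphocyte mean as a covariate, chosen after seeing the data, early minus late remained called for Fos and Jun. It was not called for Junb (0.48, adjusted p = 0.0853) or Fosl2 (0.61, adjusted p = 0.102), and 27 of all genes tested were called. The late value of Fos became -0.19. The early value of Fos was 0.50 and passed (adjusted p = 0.0272), where 26 of all genes did. Luminal epithelial markers (9 genes) averaged -0.18 and -0.21 at 3 and 6 h and 0.35 at 12 h, and their part in the AP-1 values was not tested.

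**Figure D4:**
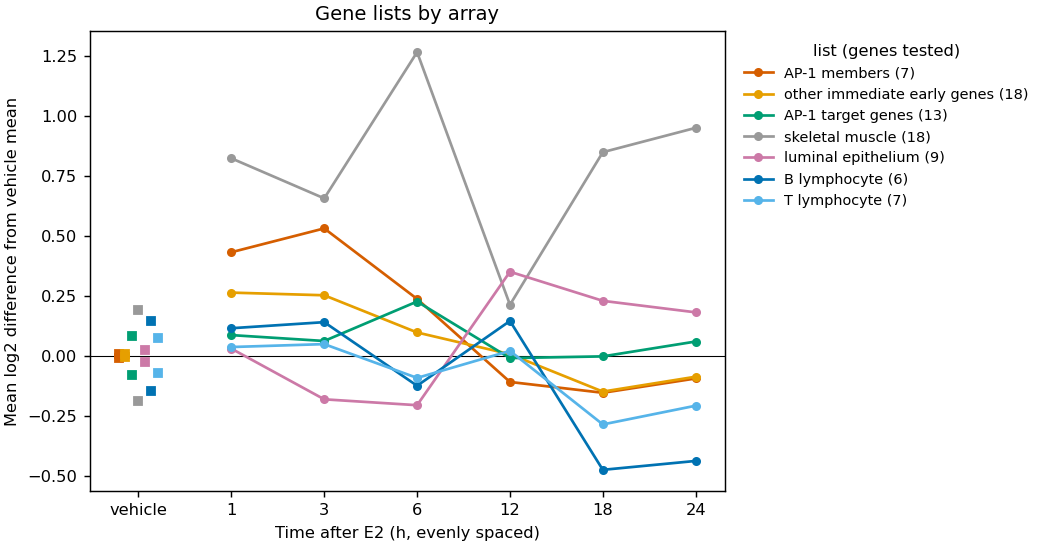
Lines give the mean log2 difference from the vehicle mean over the tested genes of each list on the 6 E2 arrays; squares are the 2 vehicle arrays. AP-1 genes average 0.43, 0.53 and 0.24 at 1, 3 and 6 h and -0.11, -0.15 and -0.09 later, while muscle markers are high except at 12 h and B lymphocyte markers low at 18 and 24 h.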

How the data were processed

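Per the labels' protocols, biotin-labelled cRNA was made from Trizol-extracted RNA for Affymetrix arrays. GCOS 1.0 and RMA are named in the submitters' processing notes, with no role stated. What the authors deposited is 1 linear intensity per probe set, for 45101 probe sets. Median intensities ran from 173.9 to 180.49 over the arrays, and no further normalization was applied before log2. The 64 control probe sets were left out. Symbols came from the platform annotation. Linear models were fitted in limma 3.58.1 (R 4.3.3) with a mean-variance trend on 1 probe set per gene at or above the 40th percentile: 3 windows with 5 residual degrees of freedom, a slope on log2 hours with 4, and 7 group means with 1. The code of the window fit was run on simulated data with independent noise and a constant shift over the early window. That simulation held no change within a window, so it does not show how the fit performs on these arrays. Calls are at an adjusted p below 0.05, two-sided. Precision is limited by how few arrays there are. All probe sets of the 9 genes are named; of each pathway list, the 3 genes farthest from vehicle in the early window and any called, with a few members added after values were seen; and for tested members at least 0.4 from vehicle on an array, the 3 genes of highest correlation. The members and lists were chosen with earlier results of these data known. Alternatives varied the filter, normalization, probe set choice, variance model, covariates and arrays used.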

Additional observations from a re-analysis of the deposited data

Results flagged for a closer look

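For 4 genes every early array lay above both vehicle arrays and every late array below both, so that the early and late differences from vehicle had opposite signs, although neither difference passed its own test for any of the 4. The margin was small for Fosl2 at 24 h (-0.01 against vehicle 2), and its other probe set lay above both vehicle arrays at 18 and 24 h. The late value of Junb turned positive with the muscle covariate (0.0723). The early minus late difference was 0.82 for Fos, 0.63 for Fosl2, 0.36 for Jun and 0.59 for Junb on the log2 scale, and each passed the limma test of that difference (adjusted p = 0.0199, 0.0406, 0.0265 and 0.0406).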

How the results depend on the processing

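Over quantile normalization and median-centred arrays, 0 of 64 AP-1 values changed sign. Early against late, with 60 genes and 4 AP-1 genes called, gave 29 genes with quantile normalization, 23 (2 AP-1) with probe set means, 1121 with the muscle covariate, 27 (2 AP-1) with the B lymphocyte covariate and 2 AP-1 genes with windows of 1 and 3, 6 and 12, and 18 and 24 h; the last 2 settings were chosen after seeing the data. Leaving out each array gave 0 to 232 genes and 0 to 5 AP-1 genes. Early against vehicle, with 0 calls, gave 1 gene with no filter, with probe set means and with every probe set as its own row, 12 (1 AP-1) with the muscle covariate, 26 (1 AP-1) with the B lymphocyte covariate, 4 with the other windows, and 0 to 49 (0 to 1 AP-1) with an array left out. The slope, with 9 genes and 0 AP-1 genes, gave 2 with quantile normalization, 19 with median-centred arrays, 15 with every probe set, 5 with the muscle covariate, 0 with the B lymphocyte covariate, and 1 to 298 (0 to 4 AP-1) with an array left out; 1 AP-1 gene passed with no filter, with centring, with probe set means and with every probe set. In the fit with 7 group means, 3 gene and time pairs of AP-1 genes passed, against 5 with no filter or every probe set, 1 at the 60th percentile or without trend, and 9 with centring. Pairs past 1.5-fold numbered 4, against 1 at 2-fold and 4 to 7 with 1 vehicle array.

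Late against vehicle turned positive for Jund with probe set means (0.0484) and the muscle covariate (0.0271), for Junb with the muscle covariate (0.0723) and for Atf3 with the other windows (0.0147), and ran from -0.26 to 0.13 for Atf3 with an array left out. Early against vehicle, Fos minus Fosl2 turned to 0.13 and Fos minus Jdp2 to 0.12 with probe set means. With an array left out the ranges were -0.13 to 0.11 for Fosl2, -0.353 to 0.00297 for Jdp2, -0.0873 to 0.199 for Fosb, -0.039 to 0.188 for Junb and -0.0232 to 0.573 for Atf3. The cause of these changes was not tested. No paired analysis was possible because the E2 groups have 1 array each. The number of arrays and the signal of dim probe sets, those of Fosb and Fosl1 among them, limit what could be called.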
